A study of Mus musculus with 4 samples.

Results

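Heme synthesis enzymes were followed in hepatocytes of mice with diet-induced steatohepatitis that received tamoxifen or vehicle. The genes were taken from a given list of mouse symbols and matched to Ensembl identifiers, and all 8 of 8 were found among the 22298 genes listed. They were Alas1, Alad, Uros, Urod, Cpox, Ppox and Fech, which are 7 enzymes of the pathway, and Blvrb. Blvrb does not synthesize heme. It is a biliverdin and flavin reductase, which puts it on the side of heme breakdown.

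The libraries came from primary hepatocytes of wild-type male C57BL/6 mice, bought at 8 weeks of age and fed a methionine- and choline-deficient (MCD) diet for 6 weeks. The vehicle group had 2 libraries and the tamoxifen group had 2, the drug being given at 100 mg/kg on 5 consecutive days in corn oil. All mice were on the MCD diet, so no library of a healthy liver was compared. Nothing in the labels ties each library to its own mouse, and p-values therefore measure only the spread between these libraries.

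Heme is built from glycine and succinyl-CoA by a chain of enzymes that begins and ends in the mitochondrion. ALAS1 catalyses the first and rate-limiting step in the liver, and heme itself represses it. The main use of new heme in hepatocytes is in cytochromes P450, the oxidases that metabolize drugs and steroids. Drugs that induce P450 genes through the receptors CAR and PXR are known to raise Alas1 as well.

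The values were FPKM, that is, fragments divided by transcript length in kilobases and by the depth of sequencing. Being corrected for length, they can be compared between genes as shares of a library. The spacing of low values corresponds to about 16700000 to 20700000 mapped fragments per library. Of the genes listed, 11633 reached 1 FPKM in at least 2 libraries and were tested on log2(FPKM + 1) with limma. The median log2 fold change of all of them was -0.60, and the 100 most abundant genes held 46.1% to 53.8% of the summed FPKM in vehicle and 62.6% to 65.0% in tamoxifen. Hepatocyte markers summed to 52895 and 40715 FPKM in vehicle 1 and 2 and to 76512 and 73385 FPKM with tamoxifen 1 and 2. Markers of Kupffer cells and macrophages, 15 of 15 lower after tamoxifen, summed to 1899 and 3840 FPKM in vehicle 1 and 2 and to 164 and 267 FPKM with tamoxifen 1 and 2. In vehicle 2, digestive enzymes of the exocrine pancreas summed to 1263 FPKM, against 8.22 to 50.3 FPKM in the other libraries. In such bulk samples fewer cells of a type and less RNA per cell cannot be told apart.

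With FPKM as deposited, 7 of the 8 genes did not pass the test after tamoxifen, whereas about as many tested genes were called as not. By limma, Blvrb alone was lower at an adjusted p under 0.05, which is 1 of 8 genes, while 0 were higher and 7 did not pass. Over all genes tested 51% were called, 46.7% lower and 4.31% higher. At the thresholds of the study, read as an unadjusted p under 0.05 and a fold change above 1.5, again 1 of 8 was lower and 0 were higher, against 50.1% and 4.68% of all genes tested. The FPKM of the groups did not overlap for 5 of 8 genes, against 81.3% of all genes tested. Of these 3 were lower and 2 higher, against 71.9% and 9.48%. The median log2 fold change of the 8 was -0.08, compared with -0.60 over all genes, and 7 of 8 lay above that median. After median ratios over genes detected in every library the median of the 8 was 0.71 against 0.06 over all genes, and after quantile normalization it was 0.37 against 0.09. The 12 hepatocyte markers had medians of 0.74 as deposited, 1.54 after these median ratios and 0.34 after quantile normalization.

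**Figure D1:**
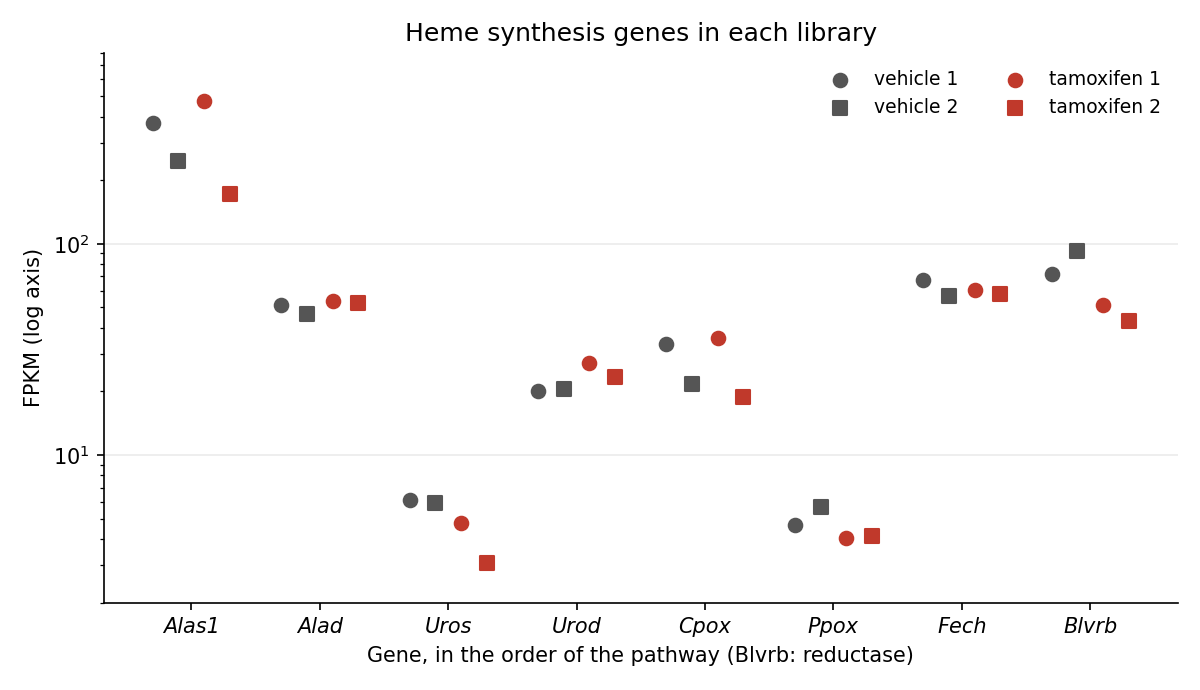
FPKM of the 8 genes on a log axis, with grey symbols for the vehicle libraries and red symbols for the tamoxifen libraries (circle, replicate 1; square, replicate 2). Alas1 lies highest in all 4 libraries and spans 171 to 472 FPKM with tamoxifen, while Alad stays between 46.4 and 53.3 FPKM.

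Alas1, the rate-limiting enzyme, lies on chromosome 9 from 106233455 to 106248654 on the minus strand (GRCm38, GENCODE M21; the authors' build was not stated). Of its annotated exon bases, 7.53% are shared with the antisense gene 4930500F10Rik. It was the most abundant gene of the group, at 373 and 247 FPKM in vehicle 1 and 2 and at 472 and 171 FPKM with tamoxifen 1 and 2. The highest and the lowest value thus both came from the tamoxifen group, and the groups overlapped. Its log2 fold change was -0.10 (standard error, SE, 0.46; limma, adjusted p = 0.871). The 95% interval of the fold change ran from 0.447 to 1.96, the widest of the 8 genes. Without tamoxifen 1 the log2 fold change was -0.82 (limma, adjusted p = 0.123), and without tamoxifen 2 it was 0.63 (limma, adjusted p = 0.246).

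The tamoxifen libraries differed from each other in Alas1 by 1.46 on the log2 scale. Only 0.756% of all genes tested differed more between these libraries. Cpox, the coproporphyrinogen oxidase of the mitochondrial intermembrane space, followed the same order. It was at 33.7 and 21.6 FPKM with vehicle and at 35.8 and 18.9 FPKM with tamoxifen, with a log2 fold change of -0.05 (SE 0.34; limma, adjusted p = 0.904). Its difference between the tamoxifen libraries was 0.89, exceeded by 2.85% of all genes tested. For both genes the first replicate was higher than the second in each group, and so it was for Alad, Uros and Fech. The replicate numbers are not known to mark a shared batch. For the 6 members other than Alas1 and Cpox the absolute difference between the tamoxifen libraries was 0.50 or less.

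Alad and Urod were the members with the highest fold changes. Alad, which condenses 5-aminolevulinate to porphobilinogen and lies on chromosome 4, was at 51.4 and 46.4 FPKM with vehicle and at 53.3 and 52.3 FPKM with tamoxifen. The groups did not overlap, but the log2 fold change was 0.11 (SE 0.19, 95% interval -0.34 to 0.56). Urod, the cytosolic uroporphyrinogen decarboxylase, also on chromosome 4, was at 20.1 and 20.6 FPKM with vehicle and at 27.3 and 23.5 FPKM with tamoxifen. Both tamoxifen values were above both vehicle values, at a log2 fold change of 0.30 (SE 0.20; limma, adjusted p = 0.237).

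Uros and Ppox were the least abundant members. Uros, the uroporphyrinogen III synthase on chromosome 7, was at 6.14 and 5.92 FPKM with vehicle and at 4.75 and 3.07 FPKM with tamoxifen. Both tamoxifen values were lower, and the change did not pass the test (log2 fold change -0.54, SE 0.25; limma, adjusted p = 0.105). At the estimated depth these values correspond to about 40 to 99 fragments per library, a counting error of 10.1% to 15.8%. Ppox, the protoporphyrinogen oxidase on chromosome 1, was at 4.66 and 5.65 FPKM with vehicle and at 4.06 and 4.14 FPKM with tamoxifen (log2 fold change -0.27, SE 0.22; limma, adjusted p = 0.338). Of its annotated exon bases, 17.5% are shared with B4galt3 on the opposite strand. No source used here states that the library kit kept strand, so reads of both genes cannot be told apart there.

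Fech, the ferrochelatase that inserts iron into protoporphyrin in the last step, lies on chromosome 18. It was at 67.7 and 56.7 FPKM with vehicle and at 60.5 and 57.7 FPKM with tamoxifen, and the groups overlapped. The log2 fold change was -0.07 (SE 0.20; limma, adjusted p = 0.793), with a 95% interval of the fold change from 0.688 to 1.32.

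In vehicle the order of the levels was Alas1, Blvrb, Fech, Alad, Cpox, Urod, Uros and Ppox, and no neighbours in this order overlapped in their libraries. In tamoxifen Blvrb stood behind Fech and Alad, at the fourth rank. There Cpox and Urod overlapped, as did Ppox and Uros.

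Blvrb was the only member called. It was at 71.7 and 92.3 FPKM with vehicle and at 51.2 and 43.1 FPKM with tamoxifen, and every tamoxifen value was below every vehicle value. The log2 fold change was -0.78 (SE 0.22; limma, adjusted p = 0.0225). This lies 0.18 below the median of all genes tested. The call was lost without vehicle 2 (-0.60; limma, adjusted p = 0.116), without tamoxifen 1 (-0.90; limma, adjusted p = 0.0595) and without tamoxifen 2 (-0.66; limma, adjusted p = 0.149), with a log2 fold change that was larger in size in 1 of these 3 cases. It was also lost after quantile normalization (-0.48; limma, adjusted p = 0.113). After rescaling by median ratios the log2 fold change was 0.005 over genes detected in every library and -0.06 over the genes tested. Blvrb is abundant in red cells and is also expressed in other cells. Globin transcripts and macrophage markers were lower after tamoxifen as well. Blvrb was higher in vehicle 2 and in tamoxifen 1. Erythroid markers summed to 404 and 419 FPKM in vehicle 1 and 2 and to 17.6 and 97.3 FPKM with tamoxifen 1 and 2. Macrophage markers summed to 1899 and 3840 FPKM and to 164 and 267 FPKM in the same order. The part of either cell type in the result was not tested.

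**Figure D2:**
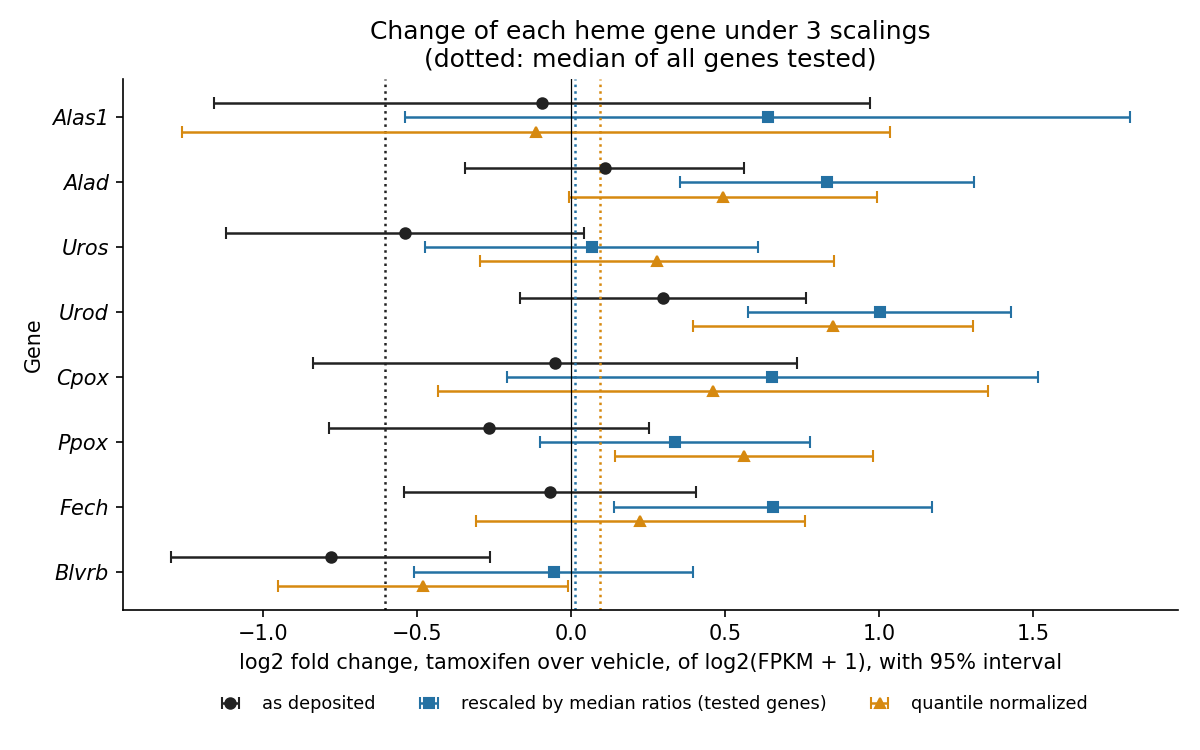
Log2 fold change of each gene with its 95% interval, from limma, for FPKM as deposited (black circles), after rescaling by median ratios over the genes tested (blue squares) and after quantile normalization (orange triangles). Dotted lines mark the median of all genes tested under each scaling; with FPKM as deposited it lies at -0.60, left of 7 of the 8 genes.

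The reading of the small changes depended on the scaling. Rescaling by median ratios over the genes tested moved the median of all genes from -0.60 to 0.01. Then 2 of 8 members were higher and 0 lower, against 14.6% and 20.3% of all genes tested. These were Urod (1.00; limma, adjusted p = 0.00829) and Alad (0.83; limma, adjusted p = 0.0209). Median ratios over all genes detected in every library added Fech (0.72; limma, adjusted p = 0.0463), which made 3 of 8 higher against 16.6% of all genes tested and 0 lower against 19.4%. After quantile normalization Urod alone was higher (0.85; limma, adjusted p = 0.0243), 1 of 8 against 13.4% of all genes tested, and 0 were lower against 13.7%. Urod was therefore called under each of these 3 rescalings and not with FPKM as deposited. Alas1 was called under none of them (limma, adjusted p = 0.305, 0.349 and 0.874).

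Cytochromes P450, the main users of heme in hepatocytes, changed in both directions. Of 100 cytochrome P450 genes, 65 were tested, and with limma at an adjusted p under 0.05, 27 were higher after tamoxifen, 10 were lower and 28 did not pass. Their median log2 fold change was 0.51. Over all genes tested 4.31% were called higher and 46.7% lower. After median ratios over genes detected in every library 38 P450 genes were higher and 3 lower, against 16.6% and 19.4% of all genes tested. After quantile normalization 32 P450 genes were higher and 5 lower, against 13.4% and 13.7%. Cyp2b10, the classical target of CAR, was at 0.45 and 0.26 FPKM with vehicle and at 91.0 and 187 FPKM with tamoxifen. It rose by 6.61 on the log2 scale (SE 0.34; limma, adjusted p = 0.000209). Cyp2c54 rose by 5.25 and Cyp17a1, a steroid hydroxylase, by 4.97. Cyp2e1, the most abundant P450 gene, was at 4967 and 2907 FPKM with vehicle and at 4193 and 3597 FPKM with tamoxifen and was not called. Cyp3a11, next in abundance, rose by 1.31 (not called after quantile normalization). Members of P450 families share near-identical sequence, so reads may have been split between them.

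Summed over the family, P450 transcripts reached 11745 and 7456 FPKM in the vehicle libraries and 15756 and 15379 FPKM with tamoxifen. The tamoxifen libraries were thus nearly level in the P450 sum while Alas1 differed between them. Single P450 genes differed in both directions. Cyp2e1 was higher in tamoxifen 1 (4193 and 3597 FPKM) and Cyp2b10 in tamoxifen 2 (91.0 and 187 FPKM). Alas1 amounted to 3.18% and 3.32% of the P450 sum in vehicle 1 and 2, to 2.997% in tamoxifen 1 and to 1.11% in tamoxifen 2. The low ratio was seen in tamoxifen 2 only. Of the electron donors of P450, 2 of 5 were called higher and 0 lower, against 4.31% and 46.7% of all genes tested. After median ratios over genes detected in every library 3 were higher and 0 lower, against 16.6% and 19.4%. Por, the P450 reductase, rose by 1.37 (SE 0.22) from 114 and 108 FPKM to 257 and 325 FPKM, and Cyb5a, a cytochrome b5, rose by 1.06 (not called after quantile normalization).

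**Figure D3:**
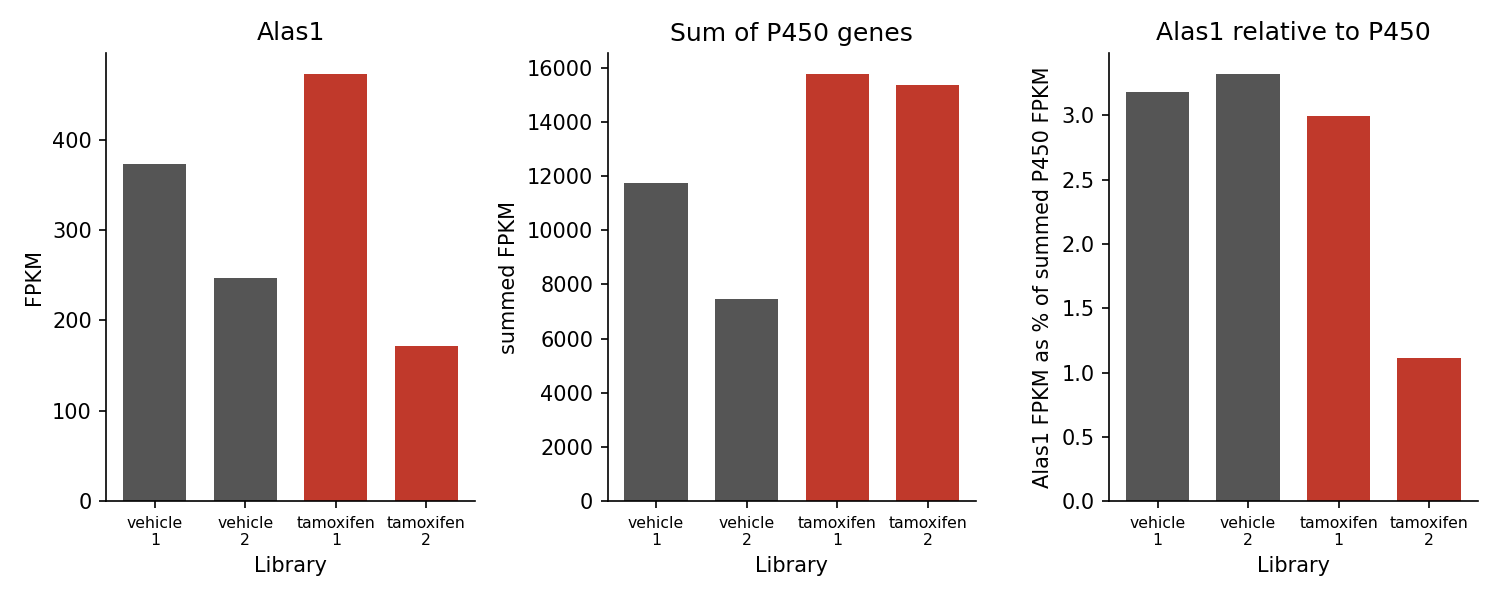
Bars give, for each library, the FPKM of Alas1, the summed FPKM of 100 P450 genes, and Alas1 as a percentage of that sum, each axis starting at 0. Alas1 is 2.997% to 3.32% of the P450 sum in 3 libraries and 1.11% in tamoxifen 2.

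Of the other hemoproteins 2 of 10 were higher and 1 was lower, against 4.31% and 46.7% of all genes tested. After median ratios over genes detected in every library 5 were higher and 1 lower, against 16.6% and 19.4%. Tdo2, the heme-dependent tryptophan dioxygenase, rose by 1.00 (SE 0.26). Cat, the catalase, was at 539 and 381 FPKM with vehicle and at 480 and 364 FPKM with tamoxifen and was not called. Cygb, a globin known from stellate cells, fell by 2.41 from 6.24 and 13.6 FPKM to 0.84 and 1.03 FPKM. Markers of stellate cells and fibroblasts were lower in 10 of 10 cases.

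Among the other genes of heme synthesis and transport, 5 of 21 were lower, 1 was higher and 15 did not pass, at a median log2 fold change of -0.09. Over all genes tested 46.7% were lower and 4.31% higher. After median ratios over genes detected in every library 2 of the 21 were lower and 8 higher, against 19.4% and 16.6% of all genes tested. After quantile normalization 2 were lower and 4 higher, against 13.7% and 13.4%. Alas2, the erythroid counterpart of Alas1, was at 17.2 and 12.3 FPKM with vehicle and at 2.57 and 2.37 FPKM with tamoxifen. It fell by 2.16 (SE 0.24; limma, adjusted p = 0.00091), and by 1.39 after quantile normalization. The difference between the changes of Alas1 and Alas2 was not tested. Globin transcripts were lower too. Hba-a1 was at 99.6 and 105 FPKM with vehicle and at 3.16 and 23.3 FPKM with tamoxifen. Of 17 erythroid markers found, Alas2 among them, 6 were tested, 5 were lower and 1 was higher. The higher one was Klf1, at 0.47 and 0.1 FPKM with vehicle and at 1.24 and 1.64 FPKM with tamoxifen. The list summed to 404 and 419 FPKM in vehicle and to 17.6 and 97.3 FPKM with tamoxifen, with Rhd and Kel among those at 0 in all 4 libraries. Between the tamoxifen libraries Alas2 was nearly level, and the globins were higher in tamoxifen 2. The part of red cells in the fall of Alas2 was not tested.

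Slc48a1, which moves heme out of lysosomes, fell by 1.47 and Slc25a37, the mitochondrial iron importer mitoferrin 1, fell by 0.82. Flvcr1, a transporter linked to heme export, fell by 1.46 and Abcg2, which exports porphyrins and drugs, fell by 0.69. The falls of Slc25a37 and Abcg2 were not called under any of the 3 rescalings, and Abcg2 turned to 0.09 and 0.03 after the median ratios. Flvcr1 was at -0.89 after median ratios over the genes tested (limma, adjusted p = 0.0467), at -0.84 over genes detected in every library (limma, adjusted p = 0.0508) and at -0.62 after quantile normalization (limma, adjusted p = 0.122). Abcb6, a porphyrin transporter, was the one gene called higher, at 10.4 and 8.86 FPKM with vehicle and at 16.7 and 13.9 FPKM with tamoxifen (0.62; limma, adjusted p = 0.0448). The most abundant genes of the list were not called with FPKM as deposited. Pgrmc1, a heme-binding membrane protein that partners P450, was at 400 and 327 FPKM with vehicle and at 606 and 492 FPKM with tamoxifen. It was called higher after both sets of median ratios (1.39 and 1.33; limma, adjusted p = 0.0123 and 0.0131). Slc25a39 was at 371 and 222 FPKM with vehicle and at 305 and 237 FPKM with tamoxifen.

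The breakdown and scavenging genes held larger changes in both directions. With FPKM as deposited 4 of 10 were lower and 2 higher, against 46.7% and 4.31% of all genes tested. After median ratios over genes detected in every library 3 were lower and 2 higher, against 19.4% and 16.6%. After quantile normalization 5 were lower and 2 higher, against 13.7% and 13.4%. Hmox1, the inducible heme oxygenase, was at 164 and 275 FPKM with vehicle and at 37.0 and 16.2 FPKM with tamoxifen. It fell by 3.06 (SE 0.40; limma, adjusted p = 0.00143). Blvra, the main biliverdin reductase, fell by 1.52 from 13.3 and 20.8 FPKM to 4.75 and 5.57 FPKM. Hmox2, the constitutive heme oxygenase, was at 56.5 and 63.7 FPKM with vehicle and at 47.4 and 53.6 FPKM with tamoxifen and was not called. The plasma scavengers went the other way. Hp, haptoglobin, which binds free hemoglobin, rose by 2.34 to 4597 and 5941 FPKM. Hpx, hemopexin, which binds free heme, rose by 1.52 from 2124 and 2115 FPKM to 5529 and 6666 FPKM. Ftl1, the ferritin light chain, was at 4086 and 5160 FPKM with vehicle and at 3118 and 2579 FPKM with tamoxifen and was not called with FPKM as deposited (called lower after quantile normalization, and at 0.10 after median ratios over genes detected in every library). Hmox1 and Blvra had more FPKM in vehicle 2 than in vehicle 1. So did 15 of 15 macrophage, 10 of 10 liver endothelial, 10 of 10 stellate cell and 11 of 11 pancreatic markers tested. Of the hepatocyte markers 0 of 12 did. Over all genes tested the median of vehicle 1 minus vehicle 2 was -0.20 on the log2 scale. Between the tamoxifen libraries Hmox1 was higher in tamoxifen 1 and Blvra in tamoxifen 2. In tamoxifen 1 and 2 the macrophage markers summed to 164 and 267 FPKM and the endothelial markers to 138 and 169 FPKM. The stellate cell markers summed to 31.8 and 48.6 FPKM and the pancreatic markers to 8.49 and 50.3 FPKM. The part of macrophages or other cells in the falls of Hmox1 and Blvra was not tested.

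**Figure D4:**
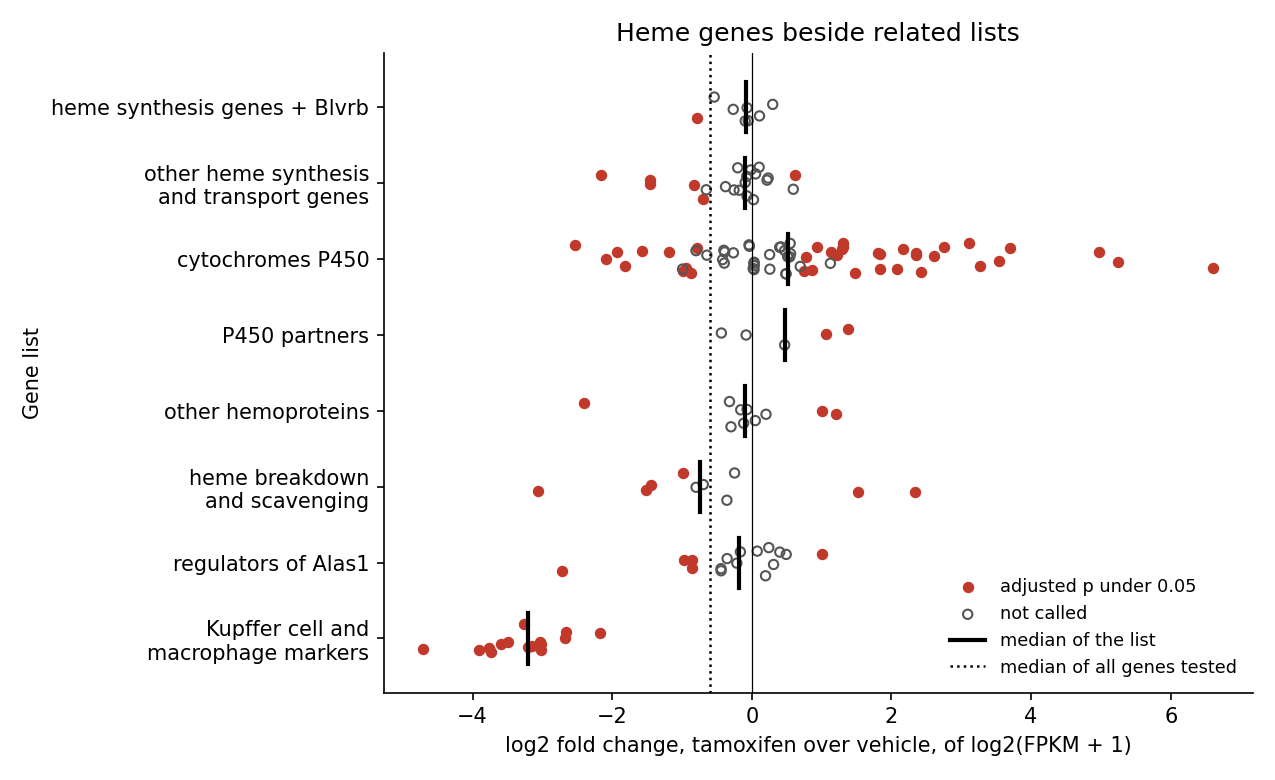
Log2 fold changes of the genes tested in 8 lists, with filled red symbols for an adjusted p under 0.05 from limma, open symbols for genes not called, a bar at the median of each list and a dotted line at the median of all genes tested. The 7 heme synthesis genes lie between -0.54 and 0.30 and Blvrb, shown in the same list, at -0.78, whereas P450 genes run from -2.53 to 6.61.

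Of the genes listed as regulators of Alas1, 4 of 16 were called lower and 1 higher with FPKM as deposited. Whether each of them acts on Alas1 was not tested. The split turned to 1 lower and 6 higher after median ratios over genes detected in every library, and to 1 and 3 after quantile normalization. Over all genes tested the shares lower and higher were 46.7% and 4.31% as deposited and 19.4% and 16.6% after those median ratios. After quantile normalization they were 13.7% and 13.4%. Nr1i3, which encodes CAR, was at 44.9 and 27.4 FPKM with vehicle and at 39.8 and 43.7 FPKM with tamoxifen, and was called higher only after median ratios over genes detected in every library (1.02; limma, adjusted p = 0.0450). Nr1i2, which encodes PXR, was at 16.4 and 13.2 FPKM with vehicle and at 24.0 and 18.6 FPKM with tamoxifen (0.49; limma, adjusted p = 0.104). It was called higher under all 3 rescalings, at 1.24 and 1.19 after the median ratios and at 1.08 after quantile normalization (limma, adjusted p = 0.00954, 0.0105 and 0.0277). Hnf4a, a hepatocyte transcription factor, rose by 1.01 (SE 0.24). Nfe2l2, which encodes the stress factor NRF2, fell by 2.71 from 73.7 and 102 FPKM to 17.8 and 8.44 FPKM. Mafk, a partner of NRF2 and of the heme sensor BACH1, fell by 0.97 (not called after quantile normalization or either set of median ratios). Ppargc1a, a coactivator that raises Alas1 in fasting, was at 4.35 and 4.09 FPKM with vehicle and at 3.05 and 10.7 FPKM with tamoxifen. Its order in the tamoxifen libraries was opposite to that of Alas1. Egr1, the most abundant of these genes, was at 225 and 259 FPKM with vehicle and at 305 and 252 FPKM with tamoxifen, and was called higher after both sets of median ratios only.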

How the data were processed

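RNA of hepatocytes from 2 vehicle and 2 tamoxifen libraries was enriched for mRNA and sequenced. The authors deposited FPKM values rounded to 2 decimals. The submitters' processing notes list HISAT2, RSEM, StringTie 1.3.1, Bowtie2 and fastp 0.18.0 without their roles. Neither genome build nor annotation of the authors was stated. Since FPKM are relative to the library, values of most genes drop where abundant genes take more of it. Depth was inferred, in genes with a single transcript annotated, from the steps between low values, and fragments per gene from the median length of coding transcripts. These counting errors cover counting only.

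Log2(FPKM + 1) was tested with limma 3.58.1 in R 4.3.3 (lmFit and eBayes with trend, two-sided), with Benjamini-Hochberg adjustment over 11633 genes that reached 1 FPKM in at least 2 libraries. Fold changes on this scale understate changes of low genes. With 2 libraries against 2, an exact permutation test cannot go below p = 0.333. The genes and lists were chosen with earlier results of these data known. Named are all 8 members, in the lists of related genes the 3 largest called changes at a mean of at least 5 FPKM and the 2 highest means, and Alas2, Hmox1, Hmox2, Blvra, Por, Nr1i2, Nr1i3 and Ppargc1a. Abcb6, Flvcr1, Abcg2, Klf1 and the genes under other observations were chosen after their values were seen. Some genes that this rule names are not reported here. Of the lists, Tf was matched as Trf and 1 symbol was not matched. Liver endothelial markers were lower in 10 of 10 cases. The pipeline was tested on simulated data in which few genes changed, with rises and falls alike. The present data differ from that, so the simulation does not bear on the choice of scaling. Alternatives were other scalings, filters, a pseudocount of 0.1, sample weights, leaving out each library, a replicate block and the thresholds of the study (unadjusted p under 0.05 and fold above 1.5). Figures used matplotlib 3.10.9 (Python 3.11.15).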

Additional observations from a re-analysis of the deposited data

How the results depend on the processing

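With 2 libraries per group the intervals are wide, and that of the Alas1 fold change, 0.447 to 1.96 with FPKM as deposited, includes falls as well as rises. All of the limits below concern the 8 heme genes, the P450 genes and the other heme genes. After rescaling by median ratios over genes detected in every library 0 members were lower and 3 higher, 2258 of all genes tested were lower and 1929 higher, 3 P450 genes were lower, and 2 other heme genes were lower and 8 higher. With median ratios over the genes tested, chosen after seeing the data, these counts were 0 and 2, 2362 and 1700, 3, and 3 and 8. After quantile normalization they were 0 and 1, 1595 and 1563, 5, and 2 and 4. With a mean of at least 5 FPKM 3182 of all genes and 3 other heme genes were lower. Of the other heme genes 0 were higher without a filter and 0 with sample weights, and 2 at the thresholds of the study. By construction each set of median ratios shifts all genes by about the same amount, whereas quantile normalization shifts them by different amounts. The log2 fold changes of Alas1, Uros, Cpox, Ppox, Fech and Blvrb were then 0.70, 0.12, 0.71, 0.39, 0.72 and 0.005 with median ratios over genes detected in every library. With those over the genes tested Alas1, Uros, Cpox, Ppox and Fech were at 0.64, 0.067, 0.65, 0.34 and 0.66. After quantile normalization Uros, Cpox, Ppox and Fech were at 0.28, 0.46, 0.56 and 0.23.

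When each library was left out in turn, 0 to 1 member was lower and 0 were higher. Over all genes 2353 to 4141 were lower and 264 to 496 higher, 6 to 10 P450 genes were lower and 19 to 33 higher, and 3 to 4 other heme genes were lower and 0 to 1 higher. The log2 fold change ran from -0.82 to 0.63 for Alas1, from -0.50 to 0.39 for Cpox and from -0.19 to 0.057 for Fech. Where 1 library of a group remained, it was assumed to vary like the other group. Deviations from the group means correlated at 0.28 across genes between libraries of the same replicate number, and with 2 pairs this does not show that the numbers pair the samples. With the replicate number as a block, 1 member was lower and 0 were higher (Blvrb, adjusted p = 0.0102 from limma), and 30 P450 genes were higher and 13 lower. In all, 64 of 94 results of single members kept their direction and side of the threshold and 20 changed sign. Of the 94, 6 lost their call and 6 gained one, 1 of each with a change of sign.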

Other observations

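Other genes also differed between the tamoxifen libraries, and 4 of them are given here, chosen after their values were seen. Plin2, a lipid droplet coat protein, was at 232 FPKM in tamoxifen 1 and at 27.2 FPKM in tamoxifen 2, and Fabp1, a fatty acid binding protein, was at 1292 and 350 FPKM. Igfbp1, a secreted binding protein of insulin-like growth factors, was at 260 and 897 FPKM. Ddit4, an inhibitor of mTOR signaling, was at 5.09 and 60.5 FPKM. Like Alas1, Plin2 and Fabp1 were higher in tamoxifen 1, and Igfbp1 and Ddit4 were higher in tamoxifen 2. Whether these differences have a common source was not tested.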
